A study of Mus musculus with 7 samples.

Results

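The sites described here are the peaks of Oct1 in undifferentiated mouse embryonic stem cells (ESCs) that overlapped an ESC peak of Oct4 by at least 1 bp and overlapped no Oct1 peak at day 3 or day 6 of mesodermal differentiation. There were 9105 such sites among 17709 ESC Oct1 peaks, and among 53151 peaks in the 4 lists of the series. They were chosen by the presence and absence of peaks in those 4 lists, so the count of members and their loss at the later times describe the choice and support nothing further. All samples carried the parental genotype. The ESC libraries were an Oct1 ChIP (antibody NBP2-21584) and an Oct4 ChIP (antibody sc-5279), and the day 3 and day 6 libraries were Oct1 ChIPs with the Oct1 antibody from cells differentiated with Bmp4 and then with Rspo3 and LDN-193189, an inhibitor of BMP receptors. Each group had 1 library, so no difference between groups could be set against replicate error and no test across libraries was made. Intervals are exact Clopper-Pearson 95% intervals and cover counting error only. The lists hold no expression values, so the labelled cell type could not be checked against marker genes.

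Both factors belong to the POU family, Oct1 as the product of Pou2f1 and Oct4 as that of Pou5f1, and recognise the octamer sequence and close relatives of it. Oct1 is made in nearly all cell types, whereas Oct4 is a core factor of pluripotent cells that binds many of its sites together with Sox2 and is silenced as cells leave pluripotency. The ESC peaks of both factors are known to include distal enhancers of pluripotency genes, and the octamer itself is best known from promoters of histone and immunoglobulin genes.

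Promoter sequence was available for windows from 250 bases before to 50 bases after annotated gene starts, and 452 of these windows were overlapped by 395 members. The sequences below are from RefSeq on assembly GRCm38.p6, 5′ to 3′ along the gene's strand, with octamers (ATGCAAAT on either strand, or 1 mismatch from it) in capitals. Those of Tcl1 and Dnmt3l are shown because their genes belong to the lists described below and their windows lay wholly inside a member. That of Liph is shown as a protein-coding promoter with an exact octamer at a member, and that of Fbxo48 as a contrast, a shared peak that was listed again at a later time.
Tcl1, chr12:105222688-105222987, minus strand: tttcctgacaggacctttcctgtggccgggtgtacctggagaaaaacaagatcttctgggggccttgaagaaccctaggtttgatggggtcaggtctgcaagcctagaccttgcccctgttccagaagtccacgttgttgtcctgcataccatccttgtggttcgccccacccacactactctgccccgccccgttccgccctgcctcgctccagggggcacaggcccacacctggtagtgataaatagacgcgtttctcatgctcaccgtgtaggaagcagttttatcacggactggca
Dnmt3l, internal start, chr10:78049592-78049891, plus strand: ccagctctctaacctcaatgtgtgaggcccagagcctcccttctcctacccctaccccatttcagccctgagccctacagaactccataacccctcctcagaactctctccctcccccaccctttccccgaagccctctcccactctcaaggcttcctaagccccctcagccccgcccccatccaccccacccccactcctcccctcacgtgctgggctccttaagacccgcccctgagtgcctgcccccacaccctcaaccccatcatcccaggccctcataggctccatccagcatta
Dnmt3l, second internal start, chr10:78055085-78055384, plus strand: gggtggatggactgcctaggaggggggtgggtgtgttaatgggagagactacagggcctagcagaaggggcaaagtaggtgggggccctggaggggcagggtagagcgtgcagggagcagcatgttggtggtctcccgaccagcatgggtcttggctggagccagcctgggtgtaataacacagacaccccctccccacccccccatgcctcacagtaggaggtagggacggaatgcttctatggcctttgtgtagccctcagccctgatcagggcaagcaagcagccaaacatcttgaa
Liph, chr16:21995493-21995792, minus strand: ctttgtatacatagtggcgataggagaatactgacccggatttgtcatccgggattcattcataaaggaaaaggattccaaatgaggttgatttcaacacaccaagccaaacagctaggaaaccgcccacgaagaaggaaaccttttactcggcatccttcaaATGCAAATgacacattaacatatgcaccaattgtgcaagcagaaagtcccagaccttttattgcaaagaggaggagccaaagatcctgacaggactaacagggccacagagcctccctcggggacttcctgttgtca
Fbxo48 (not a member), chr11:16951125-16951424, plus strand: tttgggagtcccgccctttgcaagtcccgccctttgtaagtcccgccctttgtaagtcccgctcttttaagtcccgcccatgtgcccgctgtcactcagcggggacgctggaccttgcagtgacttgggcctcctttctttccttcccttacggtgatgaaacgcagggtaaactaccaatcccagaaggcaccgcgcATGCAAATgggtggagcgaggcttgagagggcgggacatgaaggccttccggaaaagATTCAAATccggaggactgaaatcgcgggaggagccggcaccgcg
The Tcl1 window and both Dnmt3l windows held no octamer, even with 1 mismatch allowed. The Liph window held 1 exact octamer, at position 164 counted from 1 at the 5′ end, inside the stretch of 248 bases that the member (Oct1 score 790, rank 468) covered. The Fbxo48 window held an exact octamer at position 199 and a copy with 1 mismatch at position 256, under an Oct1 peak of score 4176 (rank 87). Scores here are the authors' whole-number value per peak, whose scale the sources used here do not give, and rank 1 is the highest score of a list.

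Overlap with Oct4 in ESCs went with little difference in whether an Oct1 peak was listed later. Of the 10461 shared peaks, 87.0% (86.4 to 87.7) were listed at neither later time. Of all ESC Oct1 peaks 87.5% were listed at neither time, and of the 7248 without an Oct4 peak 88.1% (87.3 to 88.8). The members' share is therefore near the background of all ESC Oct1 peaks. The later lists were shorter than the ESC list, with 4867 peaks at day 3 and 7758 at day 6, and since the depth of each library is unknown, loss of binding and a signal under the authors' cutoff cannot be told apart. Among the shared peaks, 806 (7.70%) were listed at day 3 and 789 (7.54%) at day 6, with 239 at both, 567 at day 3 only and 550 at day 6 only. Thus 1356 shared peaks were listed again, and these serve as the main comparison.

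The comparison changed with position. At the ends of genes (start or end, within 1 kb), 76.4% (74.3 to 78.3) of shared peaks and 69.5% (66.9 to 71.9) of peaks without Oct4 were listed at neither later time. Farther away the order turned, with 89.2% (88.5 to 89.8) of shared peaks and 92.2% (91.5 to 92.9) of peaks without Oct4. The later lists had 52.4% (day 3) and 70.0% (day 6) of their peaks within 1 kb of a gene start. The lower shares at gene ends are thus in part set by the rule. Whether the differences between shared peaks and peaks without Oct4 exceed the spread between libraries could not be tested.

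The highest-scoring shared peaks were the ones listed again most often. Of the lowest 10% of shared peaks by Oct1 score (29 to 55), 94.6% (93.1 to 95.9) were members, and of the highest 10% (296 to 163148) 58.7% (55.7 to 61.7). In the class next to the highest the share was 80.8%, so the steepest step was at the top. Ranked by the Oct4 score instead, the share lay between 85.5% and 89.9% in the lower 9 classes of 10% and at 72.6% (69.8 to 75.3) in the highest. These scores come from lists the choice used and are given as a description.

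**Figure D1:**
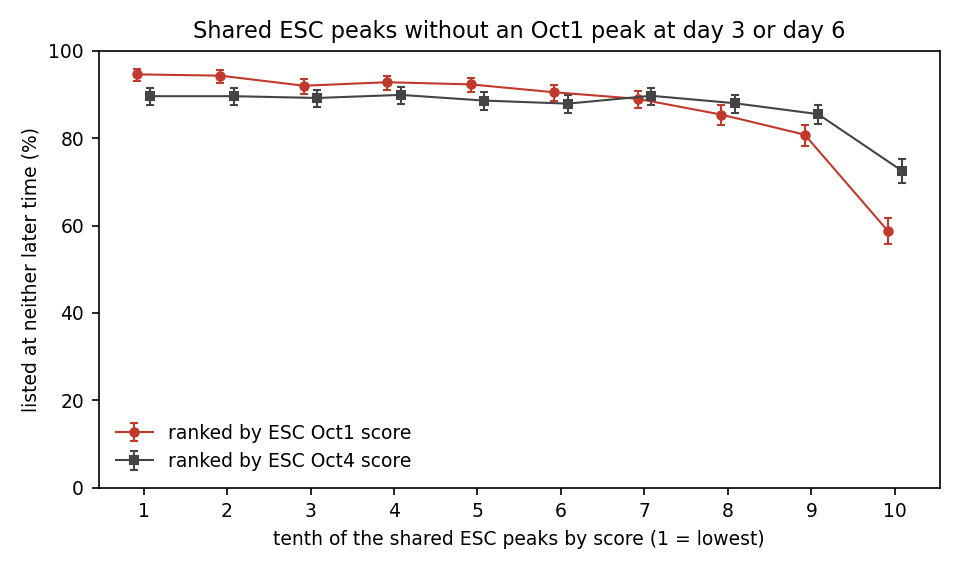
Share of the 10461 shared ESC peaks that had no Oct1 peak at day 3 or day 6 (y axis, percent) in 10 equal classes of the peaks by score (x axis, from lowest to highest), ranked by ESC Oct1 score (circles) or ESC Oct4 score (squares), with exact 95% intervals for counting. By Oct1 score the share falls from 94.6% in the lowest class to 58.7% in the highest.

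The members were mid-scale Oct1 peaks, and by the rule each overlapped an Oct4 peak. Their Oct1 scores ran from 29 to 2892, with a median of 100 and quartiles of 71 and 156, which is the 46.6th percentile of the ESC Oct1 list. The shared peaks listed later had a median of 181.5 and reached 163148. Oct1 peaks without Oct4 not listed later resembled the members, with a median of 100 and quartiles of 71 and 167. By rank, 5 members stood in the top 1% of the ESC Oct1 list and 530 (5.82%) in its top 10%. The Oct4 peaks under the members had a median score of 166, the 63.6th percentile of the Oct4 list. The midpoints of the Oct1 and Oct4 peaks of a member were 55 bp apart at the median, near the 50 bp of shared peaks listed later. They were within 100 bp at 70.0% and 200 bp at 84.7% of members, and 94 members overlapped more than 1 Oct4 peak. Across members the Oct1 and Oct4 scores had a Spearman correlation of 0.50 (n = 9105), and across the shared peaks listed later of 0.59 (n = 1356). These are descriptions over peaks of the same 2 libraries, which share local chromatin and sequence. The members were 670 bp wide at the median, against 755 bp for shared peaks listed later and 570 bp for Oct1 peaks without Oct4 that were not listed later.

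Most members lay far from gene starts, as did most ESC Oct1 peaks. The promoter table gives a start for 27024 of 49939 genes (54.1%) and for 79.9% of protein-coding genes, with none on chromosome 18, so distances to a start are too long where the nearest gene is not covered. Of the 8902 members on the other chromosomes, 558 (6.27%, 5.77 to 6.79) were centred at most 1 kb from a gene start and 6065 (68.1%) lay more than 10 kb from one, beside 9.41% and 66.3% of all ESC Oct1 peaks. The shared peaks listed later had 24.0% (21.7 to 26.4) within 1 kb and 52.9% beyond 10 kb. Median distances to a gene start were 17883 bp for members and 11482 bp for shared peaks listed later. Oct1 peaks without Oct4 that were not listed later resembled the members, with 6.57% (5.97 to 7.22) within 1 kb, while 40.3% of those without Oct4 that were listed later did. The ESC Oct4 peaks without Oct1 had 4.82% (4.44 to 5.21). The later lists themselves were rich in gene starts, with 52.4% of day 3 and 70.0% of day 6 Oct1 peaks within 1 kb of one. Since overlap with these lists defines the shared peaks listed later, their larger share near starts is in part set by the rule, and so is their difference from the members.

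Split by score, the same shares were as follows, and they carry that limit too. In the lower 50% of shared peaks by Oct1 score, 4.72% (4.13 to 5.36) of members and 9.83% (6.90 to 13.5) of those listed later were within 1 kb of a gene start. In the highest 10%, the shares were 11.1% (8.73 to 14.0) of 592 members and 36.3% (31.7 to 41.1) of 421 listed later. Members within 1 kb of a gene start had a median Oct1 score of 125.5, and those beyond 10 kb of 100. By gene ends, 14.6% (13.9 to 15.3) of members and 30.3% of shared peaks listed later had a gene's start or end within 1 kb, at median distances of 7625 and 4760.5 bp. The share was 14.4% for Oct1 peaks without Oct4 not listed later and 17.3% for all ESC Oct1 peaks. The measure by gene ends covers all annotated genes. By it, 41.7% (40.7 to 42.7) of members and 32.6% (30.1 to 35.2) of shared peaks listed later lay more than 10 kb from a gene's start or end. Of Oct1 peaks without Oct4 not listed later, 45.1% did. A gene body held the midpoint of 68.9% of members, near the 66.7% of all ESC Oct1 peaks, but exons, introns and UTRs were not told apart, since the gene table gives none.

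**Figure D2:**
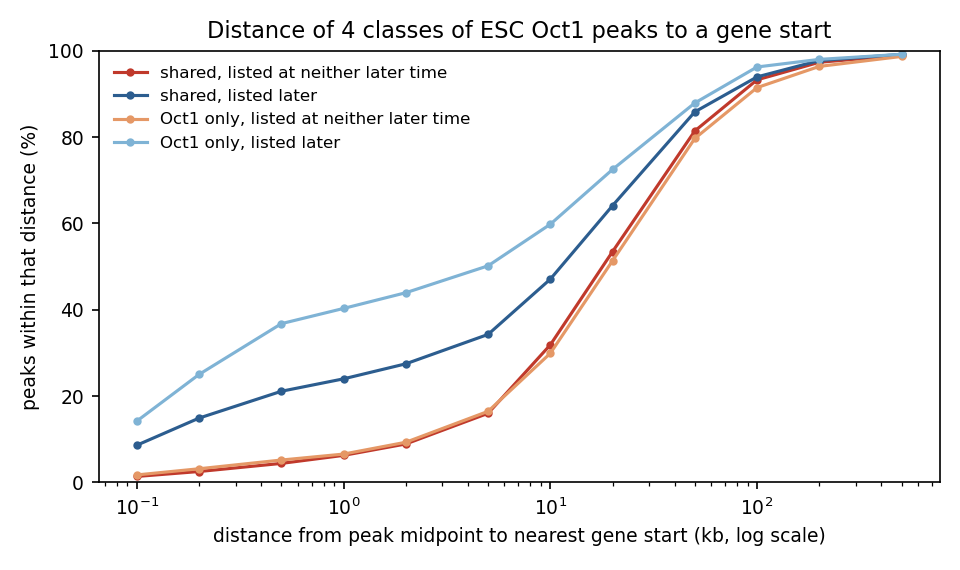
Cumulative share of ESC Oct1 peaks (y axis, percent) whose midpoint lies within a given distance of the nearest gene start (x axis, kb, log scale), for shared peaks listed at neither later time (the members), shared peaks listed later, and both classes of Oct1 peaks without Oct4. At 1 kb the curves stand at 6.27% for members, 24.0% for shared peaks listed later, and 6.57% and 40.3% for Oct1 peaks without Oct4.

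At promoters, the members' windows carried the octamer no more often than promoters at large. An exact octamer stood in 6 of 452 windows at members (1.33%, 0.489 to 2.87), and in 1.74% of all 32851 promoter windows of this length. The share was 6.45% (4.18 to 9.45) in 372 windows at shared peaks listed later, 2.94% (1.42 to 5.34) in 340 windows at Oct1 peaks without Oct4 not listed later, and 14.2% (10.9 to 18) in 402 windows at Oct1 peaks without Oct4 listed later, where 9 of the 57 windows with an octamer belonged to histone genes. Histone genes held 15 of the 570 octamer windows of all promoters, 1 of 24 at shared peaks listed later and 0 of 6 at members. The members' 6 windows belonged to Liph, which makes a membrane lipase, to Nedd4, a ubiquitin ligase, and to the genes Gm42018, Gm16551, Gm6566 and LOC115489908. At Nedd4 the member reached only the last 7 bases of the window, and the octamer at position 55 lay outside it. With 1 mismatch allowed, 16.8% (13.5 to 20.6) of the members' windows and 18.6% of all windows held an octamer. A match in these letters is a description of the sequence, and most members have no promoter window, so their distal sequences are not described.

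A further 3 short motifs were chosen after the data were seen and searched on both strands. The GC box (GGGCGG), recognised by Sp1-type factors, stood in 27.4% (23.4 to 31.8) of windows at members, 47.0% (41.9 to 52.3) at shared peaks listed later and 35.7% of all windows. The ETS core (CCGGAA) stood in 16.6% (13.3 to 20.3), 31.2% (26.5 to 36.2) and 14.9% of them in that order. A SOX core (CATTGT) stood in 11.1% (8.32 to 14.3) of windows at members, 6.99% (4.62 to 10.1) at shared peaks listed later and 12.6% of all windows, and the first 2 intervals overlap. Windows at Oct1 peaks without Oct4 not listed later had shares close to those of the members, 27.1% for the GC box, 16.2% for the ETS core and 12.9% for the SOX core. The windows at members held a median of 7 CpG dinucleotides, as did all windows, and those at shared peaks listed later 14. No motif contains another, and the GC box and the ETS core each contain a CpG.

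**Figure D3:**
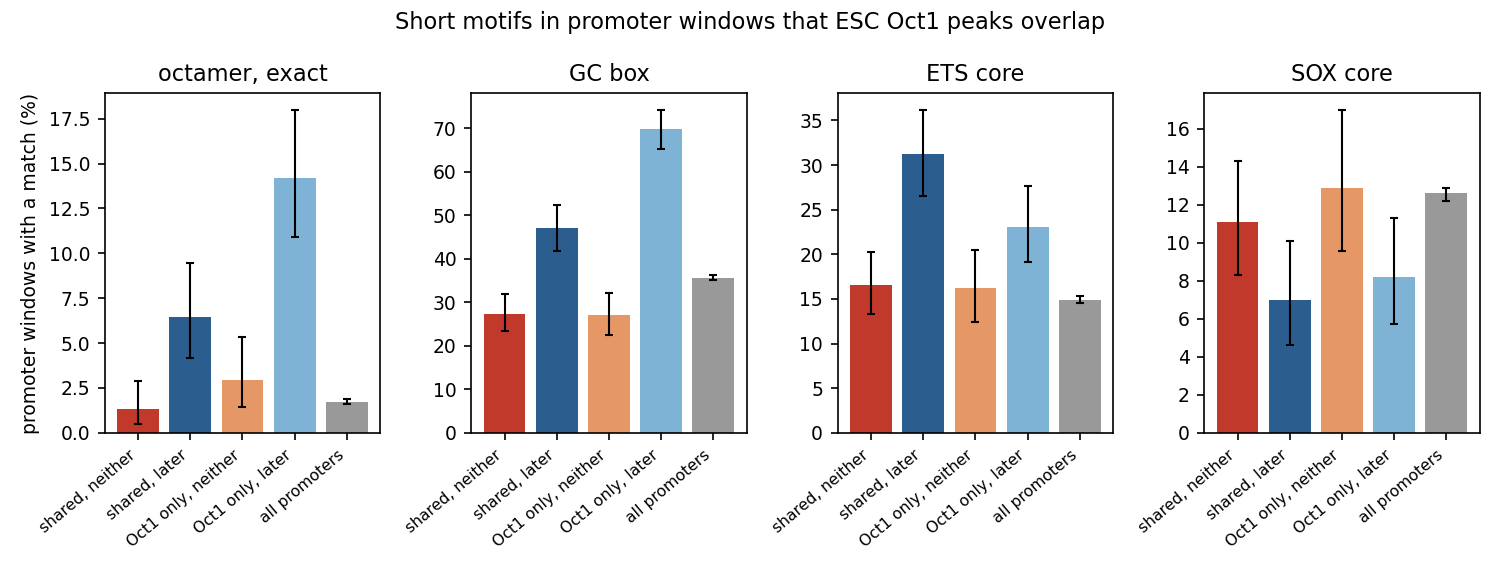
Share of promoter windows with a match to each of 4 short motifs (y axes, percent, each from 0), for windows overlapped by the 4 classes of ESC Oct1 peaks and for all 32851 windows; "neither" and "later" say whether the peak was listed at a later time, and bars carry exact 95% intervals for counting windows. For the octamer the members stand at 1.33% and all promoters at 1.74%, against 6.45% for shared peaks listed later.

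Several of the highest-scoring members lay in 1 place. By Oct1 score the highest was inside Sfi1, which makes a centrosomal protein, with a score of 2892 (chr11:3142971-3145240, 2270 bp wide), followed by 1 that lay 9388 bp from St6galnac2, a sialyltransferase gene (2626), and another inside Sfi1 (2571). The next were a member 24321 bp from the pseudogene Vmn1r-ps48 (2053), 1 in Dlgap3, a synaptic scaffold gene (1816), and members whose nearest genes were the lncRNA genes Gm36126 (1757) and Gm42018 (1565). A member 15316 bp from Ccnc, the cyclin C gene, scored 1529, 1 inside Pigl, a gene of GPI anchor synthesis, 1513, and the last of the 10, again inside Sfi1, 1451. The Oct4 scores of the 3 Sfi1 peaks were 5922, 4437 and 2728, ranks 3, 9 and 15 of the ESC Oct4 list, and another peak within Sfi1 had an Oct4 score of 3296. The inputs at this locus were not analysed here.

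By Oct4 score, the highest member outside Sfi1 was upstream of Pou5f1 itself. Its Oct4 score of 3408 was rank 13 of 22817, while its Oct1 score was 597 (rank 675). The others by Oct4 score lay in Grik3, a kainate receptor gene (2381), in the pseudogene Pisd-ps2 (1609), in Cep70, a centrosomal gene (1539), and at Pigl (1359) and Ccnc (1332).

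Members were assigned to genes in 2 ways, by the nearest gene and by a reach of 10 kb around gene bodies. The nearest gene was protein-coding for 70.4% of members, an lncRNA gene for 21.9% and a pseudogene for 5.70%, and 5731 different genes were nearest to a member. For 2524 members (27.7%) no protein-coding gene lay within 10 kb. The nearest protein-coding gene body and the nearest protein-coding gene start belonged to the same gene for 62.2% of the 8902 members on chromosomes with gene starts, and genes without a start in the promoter table could not match.

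Of 21883 protein-coding genes, 4685 (21.4%) had a member in the body or within 10 kb. Of these, 3032 had exactly 1, 1427 had 2 to 4, 226 had 5 or more, and 34 had 10 or more. Longer genes had members more often, with 7.82% of the shortest 20% of genes (up to 4.17 kb) and 33.5% of the longest 20% (57.1 kb and more). The median length was 29.2 kb for genes with a member and 14.7 kb for genes without. Over all genes and regions, 51.4% of ESC Oct1 peaks were members. Rbfox3, a splicing factor gene known from neurons, had the most, with 39 members among 48 ESC Oct1 peaks, or 8.83 per 100 kb against 0.335 per 100 kb of genome. Camta1, a gene of a calmodulin-binding transcription activator, had 25 members among 50 ESC Oct1 peaks, a share near that of all peaks. Gse1 and Zfp469 had 18 each, the zinc transporter gene Slc39a11 and the adhesion gene Sdk2 had 17 each, and the cadherin gene Cdh4 had 16. Septin9, a cytoskeletal gene, had 15 members among 16 ESC Oct1 peaks, at 8.21 per 100 kb. Igsf21, a synaptic adhesion gene, and Sh3pxd2a, a podosome scaffold gene, had 14 each.

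At 5 of 20 genes of naive and core pluripotency a member lay in the body or within 10 kb, a share of 25% beside 21.4% of all protein-coding genes. These were Pou5f1 with 3 members, Esrrb with 7, Fgf4 with 3, and Prdm14 and Tcl1 with 1 each. Only 8 of the 20 genes had an ESC Oct4 peak in that reach, and Nanog and Sox2 were among the genes without one. With a reach of 50 kb, 12 of 20 genes had a member (60%), beside 42.1% of all protein-coding genes, but the share was also 60% for ribosomal protein genes, 70% for the TGF-beta list and 80% for the LIF list. The median number of members per gene was 0 in this list and 0 over all genes.

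All 3 ESC Oct1 peaks at Pou5f1 were members. They were centred at -1992 bp (chr17:35503771-35504310), -1057 bp (chr17:35504511-35505440) and 3508 bp (chr17:35509081-35510000) from the gene start, where negative positions are upstream. Their Oct1 scores were 597, 315 and 131, and their Oct4 scores 3408, 168 and 189. The peak farthest upstream was thus the highest of the 3 in each list. Pou5f1 is known to have a distal and a proximal enhancer upstream of its start. At day 3 and day 6 the only Oct1 peak in reach lay from 10579 to 11318 bp and from 10629 to 11328 bp downstream of the start, beyond the gene's end.

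Esrrb, which encodes an orphan nuclear receptor of naive pluripotency, had 12 ESC Oct1 peaks, 7 of them members and 5 without Oct4, and no Oct1 peak in reach at day 3 or day 6. The members lay from 74768 to 146318 bp downstream of the gene's first start, and the highest (chr12:86501741-86502590) had an Oct1 score of 641 (rank 612) and an Oct4 score of 971 (rank 55). The other 6 had Oct1 scores from 95 to 229. At Fgf4, the gene of an FGF ligand made by ESCs, the 3 members were centred at -9966, 10029 and 11619 bp from the start, with Oct1 scores of 255, 89 and 222 and Oct4 scores of 290, 285 and 272. At Tcl1, the gene of an AKT co-activator, the member was centred at -98 bp from the start, with an Oct1 score of 291 and an Oct4 score of 203, and is the promoter shown above. Prdm14, a regulator of naive pluripotency and the germ line, had 1 member of Oct1 score 100.

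**Figure D4:**
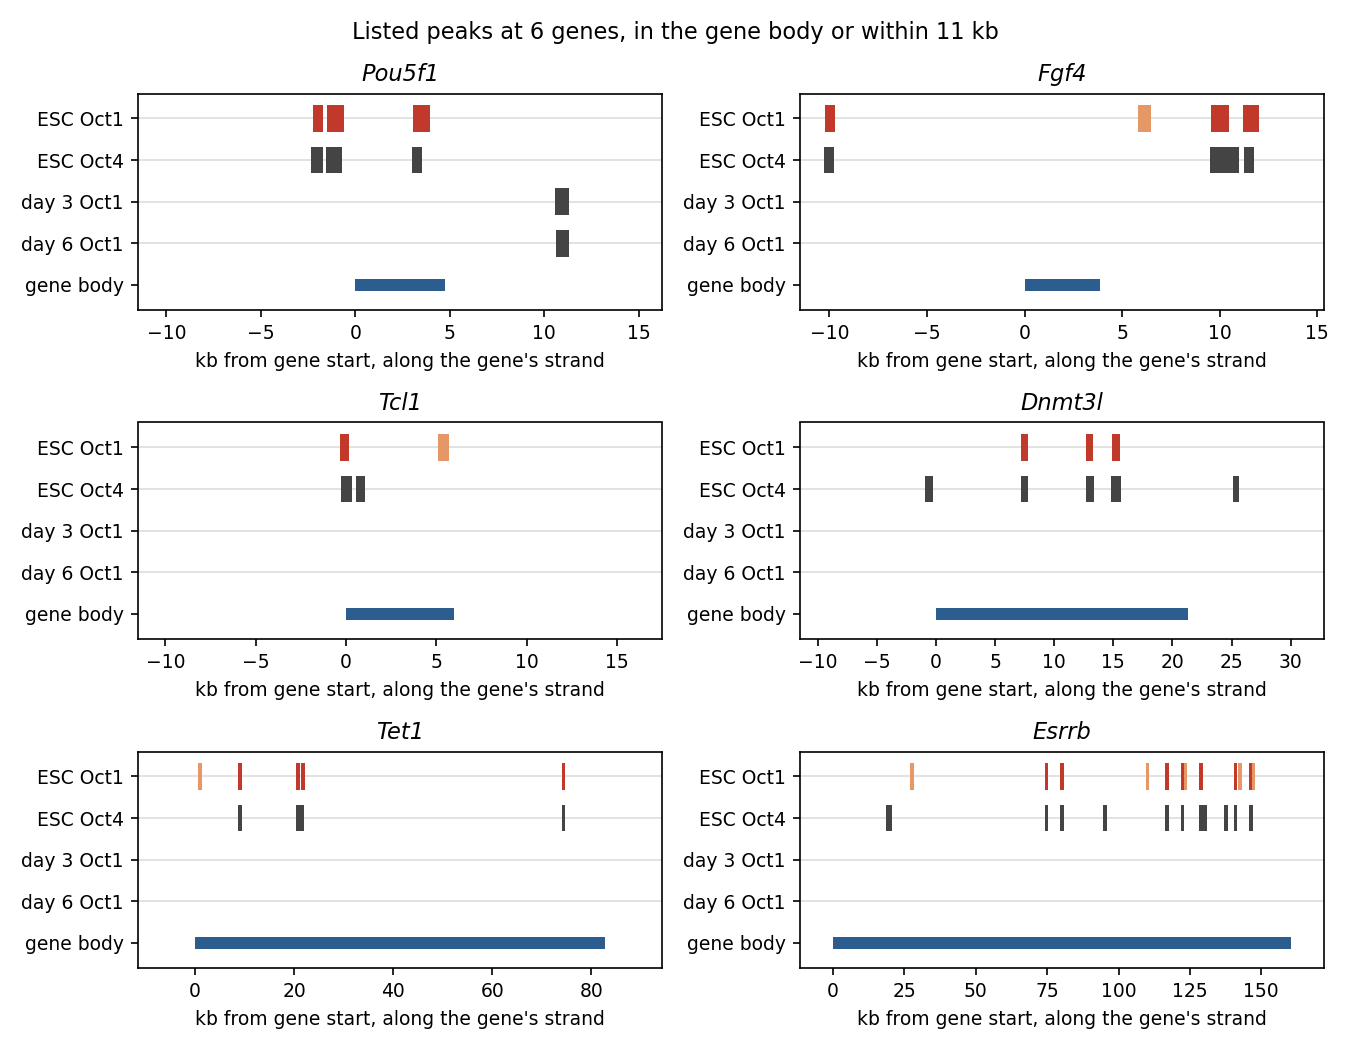
Listed peaks at Pou5f1, Fgf4, Tcl1, Dnmt3l, Tet1 and Esrrb, from 11 kb before to 11 kb past each gene (x axis, kb from the gene start along the gene's strand), with 1 track per list and the gene body in blue; in the ESC Oct1 track, members are red and other peaks orange, and narrow peaks are widened to stay visible. Of these 6 genes only Pou5f1 has a later Oct1 peak in view, beyond its end, whereas 36 of the 52 list genes with a member have one within 10 kb.

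The formative and primed pluripotency list had members at 6 of 14 genes (42.9%, beside 21.4% of all protein-coding genes). An ESC Oct1 peak of any class lay in reach at 7 of the 14, beside 7637 of all 21883 protein-coding genes. The genes with a member are named next. These were Dnmt3a with 4 members and Otx2, Dnmt3b, Zic2, Sall2 and Lef1 with 1 each. Zic2 counted by reach but was the nearest protein-coding gene of no member. At Dnmt3a, which encodes a de novo DNA methyltransferase, all 4 ESC Oct1 peaks were members, with Oct1 scores from 64 to 131. Otx2, a gene of a homeobox factor of the exit from naive pluripotency, had 1 ESC Oct1 peak, a member of Oct1 score 114 and Oct4 score 146.

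DNA methylation and polycomb genes had members at 7 of 14 (50%). An ESC Oct1 peak of any class lay in reach at 9 of the 14, beside 7637 of all 21883 protein-coding genes. The list shares Dnmt3a and Dnmt3b with the one above, and its median gene length was 58.9 kb, against 17.2 kb for all protein-coding genes. Beside the 21.4% of all genes, 26.3% of genes from 24.6 to 57.1 kb and 33.5% of longer genes had a member. Dnmt3l, the gene of a catalytically inactive partner of the de novo methyltransferases, had 3 ESC Oct1 peaks, all of them members, with Oct1 scores of 157, 242 and 53 and Oct4 scores of 195, 293 and 157. Those with scores of 157 and 242 covered the internal starts shown above. Tet1, which encodes an enzyme that oxidises 5-methylcytosine, had 4 members, centred from 9049 to 74314 bp downstream of its start. Their Oct1 scores were 71 to 100 and their Oct4 scores 217 to 267, with ranks from 2288 to 4102 in the Oct4 list and from 9106 to 13250 in the Oct1 list. Dnmt3l and Tet1 had no Oct1 peak in reach at day 3 or day 6, while the other 5 genes with a member, Dnmt1, Dnmt3a, Dnmt3b, Uhrf1 and Kdm2b, had 1 or more at other positions. Over all 11 lists, 36 of the 52 genes with a member (69.2%) also had a later Oct1 peak in reach, beside 59.7% of all 4685 protein-coding genes with a member and 45.3% of all protein-coding genes. Dnmt1, Uhrf1 and Kdm2b had 1 member each, and Ezh2, Eed, Suz12, Jarid2, Mtf2, Tet2 and Tet3 had none.

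The lists of signalling pathways active in ESCs stood between 30% and 50%, beside 21.4% of all protein-coding genes and 33.5% of those of 57.1 kb and more. An ESC Oct1 peak of any class lay in reach at 8 of 12 FGF, 7 of 12 Wnt and 7 of 10 LIF genes. Over all protein-coding genes the count was 7637 of 21883. FGF and ERK signalling had members at 6 of 12 genes (50%, median length 59.1 kb), with 1 member each. Among them were the receptor genes Fgfr1, Fgfr2 and Fgfr4, the adaptor gene Grb2 and the inhibitor gene Spred2. That at Grb2 had the highest Oct1 score of the list, 940, with an Oct4 score of 418. Wnt signalling had members at 6 of 12 genes (50%, median length 89.7 kb). The genes of its nuclear effectors held most of them, with 7 at Tcf7l1, 5 at Tcf7, 2 at Tcf7l2 and 1 at Lef1, beside 2 at the feedback inhibitor gene Axin2 and 1 at Ctnnb1, the beta-catenin gene. The member nearest the start of Tcf7l1, a repressor of Wnt targets in ESCs, was centred 1700 bp downstream of it and had an Oct4 score of 558 (rank 208) with an Oct1 score of 217. LIF and STAT3 signalling had members at 3 of 10 genes (30%), Jak1, Stat3 and Cish, with 1 each. Stat3 counted by reach but was the nearest protein-coding gene of no member.

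In the TGF-beta, Nodal and BMP list, 6 of 20 genes (30%) had a member, beside 21.4% of all protein-coding genes. Smad3, a receptor-regulated Smad gene, had 4 members among 11 ESC Oct1 peaks, with Oct1 scores of 48, 44, 144 and 53 and Oct4 scores of 158, 180, 320 and 125. The ligand gene Nodal, the receptor gene Acvr1b, the inhibitory Smad gene Smad7 and the BMP target genes Id1 and Id2 had 1 each, and Smad1, Smad2, Smad4, Smad5 and Bmp4 had none. Oct1 scores at the single members ran from 69 at Smad7 and Id1 to 323 at Id2.

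The lists of lineage genes stood between 20% and 33.3%, beside 21.4% of all protein-coding genes. Early and paraxial mesoderm had members at 6 of 24 genes (25%), with 5 at Wnt3, 3 at Wnt3a and 1 each at Dll1, Hand1, Pax3 and Evx1. Wnt3 was the nearest protein-coding gene for only 1 member, and 2 of its 8 ESC Oct1 peaks were shared peaks listed later. At Dll1, a Notch ligand gene, the only ESC Oct1 peak was a member with an Oct1 score of 157 and an Oct4 score of 1072. At Wnt3a, a Wnt ligand gene, the highest of the 3 members had an Oct1 score of 344 and an Oct4 score of 510. T, Mixl1 and Eomes had none, and the single ESC Oct1 peak at Eomes was a shared peak listed later. The neural list had members at 5 of 15 genes (33.3%), the trophoblast list at 2 of 10 (20%), with 3 members at Tead4 and 1 at Tfap2c, and cytosolic ribosomal protein genes at 3 of 20 (15%), with 4 at Rpl3. Tubb3 in the neural list and Rpl19 and Rps19 in the ribosomal list counted by reach but were the nearest protein-coding gene of no member. No list was tested, and with 10 to 24 genes each, the counts are given as descriptions.

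**Figure D5:**
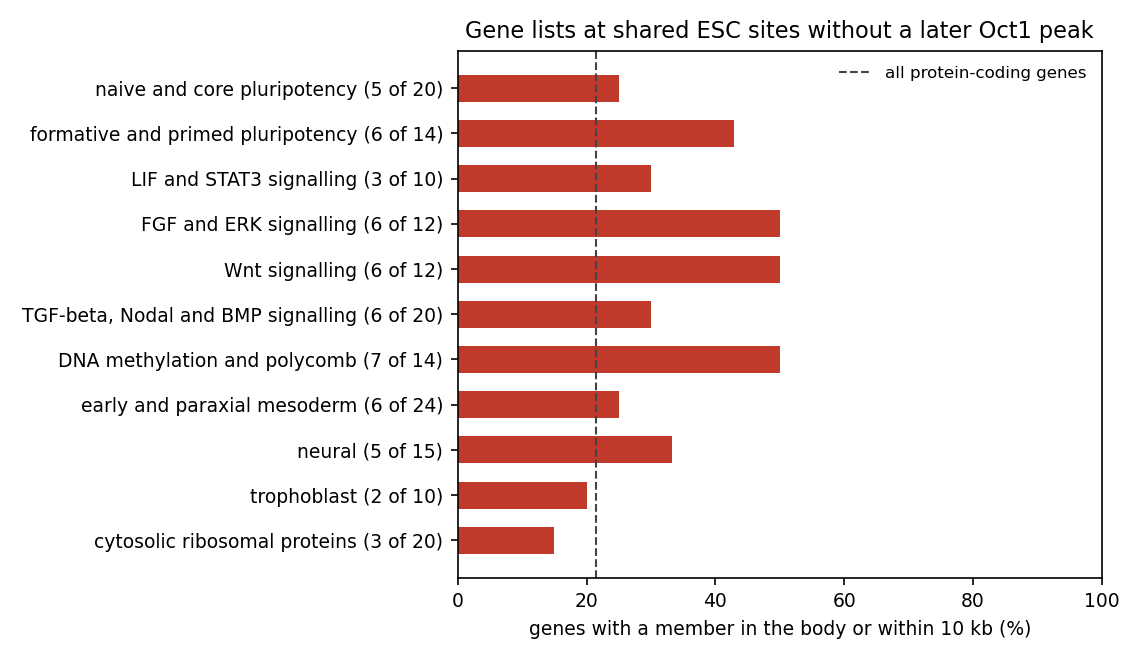
Share of genes with a member in the body or within 10 kb (x axis, percent) for 11 gene lists, with the number of genes behind each bar in its label; the dashed line is the share of all protein-coding genes, 21.4%. The bars run from 15% for ribosomal protein genes to 50% for 3 lists whose median gene length is 58.9 kb or more, and the formative list stands at 42.9% with a median length of 16.6 kb.

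MicroRNA genes were looked at after the data were seen. Of 1005 hairpins in the RefSeq table, 171 (17.0%) had a member within 10 kb and 24 (2.39%) were overlapped by one. Of protein-coding genes, which are longer, 21.4% had a member in the body or within 10 kb. MicroRNAs are short RNAs that repress messages paired with their seed, bases 2 to 8. Of the overlapped hairpins, 2 small clusters were picked after their values were seen, that of miR-200b, known from epithelial cells, and that of miR-93 and miR-106b. Mature sequences are printed with the seed in capitals to show which neighbours share one.
mmu-miR-200b-3p: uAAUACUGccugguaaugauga
mmu-miR-429-3p: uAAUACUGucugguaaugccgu
mmu-miR-200a-3p: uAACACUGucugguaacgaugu
mmu-miR-93-5p: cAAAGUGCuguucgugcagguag
mmu-miR-106b-5p: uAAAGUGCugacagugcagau
mmu-miR-25-3p: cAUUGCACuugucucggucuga
Within the first cluster, miR-200b-3p and miR-429-3p share the seed AAUACUG and miR-200a-3p has AACACUG. In the second, miR-93-5p and miR-106b-5p share AAAGUGC and miR-25-3p has AUUGCAC. The miR-200b hairpin was overlapped by a member at chr4:156055171-156055750 (Oct1 score 106, Oct4 score 176), with miR-200a 185 bp and miR-429 1183 bp away from it, and 3 members lay within 10 kb. A single member at chr5:138165561-138166130 (Oct1 score 126, Oct4 score 236) overlapped both miR-93 and miR-106b, with miR-25 156 bp away. The highest Oct1 scores over a hairpin were 1339 at miR-3063 and 1265 at miR-300. The latter lies in a chromosome 12 cluster in which 1 member of Oct1 score 90 also overlapped the hairpin Mir487b. Another single member, of Oct1 score 80, overlapped Mir409, Mir412, Mir369 and Mir410 together.

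Members were unevenly spread. Chromosome 11 held 1422 of them (15.6%), against 7.35% of protein-coding genes, 14.1% of all ESC Oct1 peaks and 19.3% of shared peaks listed later. Chromosome X held 27 (0.297%), against 4.41% of protein-coding genes, 0.497% of all ESC Oct1 peaks and 0.959% of shared peaks listed later. In windows of 1 Mb, 214 of 2732 (7.83%) held 50% of the members. No such count is given here for all ESC Oct1 peaks, so this concentration is not shown to be particular to the members. The fullest windows lay on chromosome 11 from 118 to 119 Mb, which includes Rbfox3, with 68 members among 90 ESC Oct1 peaks, and from 117 to 118 Mb, which includes Septin9, with 64 among 96, beside 51.4% of all ESC Oct1 peaks. Another member lay within 10 kb of 35.7% of members (34.7 to 36.7). Another shared peak listed later lay within 10 kb of 7.45% of those, and another Oct1 peak without Oct4 not listed later within 10 kb of 20.3% of those, but the classes differ in size, which sets such shares in part.

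Less than 1 kb from a later peak lay 134 members (1.47%), less than 5 kb 653 (7.17%) and less than 10 kb 1579 (17.3%). The rule itself removed every peak that overlapped a later one. Just inside the rule, members missed a later peak by 20 bp in Xkr6, 40 bp in Bphl, 50 bp in Pnldc1, 90 bp near Hpcal4 and 100 bp in Cldnd2, with Oct1 scores of 71, 111, 53, 95 and 201. Just outside it, shared peaks overlapped a later peak by 20 bp in Spon2, 70 bp with Bcor as the nearest protein-coding gene, 90 bp in Slc4a5, 90 bp in Nrg2 and 120 bp with Alkbh8 as the nearest, with Oct1 scores of 229, 53, 94, 90 and 133.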

How the data were processed

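ChIP-seq peaks of Oct1 and Oct4 were used as the authors deposited them, in 1 list per library (4 lists). Alignment with Novoalign 3.8.2 and the build mm10 are named in the submitters' processing notes, while the peak caller, its threshold and its control are not given in the sources used here. The fifth column is a score, a whole number per peak by the authors, whose unit is not stated, and it was used only to rank, filter or describe peaks within a list. The depth behind a list is unknown, and the 3 inputs were not analysed here.

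Overlap of at least 1 bp was computed with pandas 2.3.3, numpy 2.4.6 and scipy 1.17.1 under Python 3.11.15, and bedtools 2.31.1 gave the same 9105 members. The overlap code was tested on simulated data, where 7083 of 7083 planted overlaps with the ESC Oct1 list were found. Genes, promoter windows and microRNAs came from RefSeq tables of GRCm38.p6, with all 11 gene lists matched by symbol. Coordinates are 1-based. The promoter table has 32851 windows of 300 bases for 54.1% of genes, so distances to gene starts leave the others out. Figures were drawn with matplotlib 3.10.9.

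The members, gene lists and motif were chosen with earlier results of these data known. The text names the 10 highest members by Oct1 score and by Oct4 score, the 10 genes with the most members, genes of the lists, and the 5 peaks nearest to the rule's edge on either side. MicroRNAs, genes with an octamer promoter and Fbxo48 were named after their values were seen. An item of the lists is not reported here. No test across libraries was made. Alternatives varied the overlap, the part of each list used, the later list, the gene distance and the octamer match. Samples were grouped by source name.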

Additional observations from a re-analysis of the deposited data

How the results depend on the processing

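The 9105 members and their share of 87.0% were recomputed under other overlaps and lists. The share was 88.1% with 50% mutual coverage, 88.3% with the central 200 bp of each peak and 85.8% when a later peak within 1 kb counted. It was 92.5% with the day 3 list left out and 92.3% with the day 6 list left out. With the upper 50% of each list, there were 3944 members (92.9%), 17.8% of them within 1 kb of a gene end. With each list at the length of the shortest, there were 1472 (80.7%). With the upper 50% of the Oct4 list alone, an alternative chosen after seeing the data, there were 5857 (85.7%). The share within 1 kb of a gene end, 14.6%, became 38.9% within 5 kb, 7.16% with protein-coding genes only and 6.27% for gene starts only, the last chosen after seeing the data. Gene ends of protein-coding genes lay 15346 bp away at the median. Another member lay within 50 kb of 69.6%. The octamer share was 16.8% with 1 mismatch, and 0 of 60 windows (0%) held one under the central 200 bp, for which 3 counts of 60 give an upper limit of 5.0%. With a reach of 50 kb, genes with a member numbered 12 for naive pluripotency, 8 for LIF, 14 for TGF-beta, 12 for mesoderm, 8 for neural and 12 for ribosomal genes, and by nearest gene alone 1 for trophoblast. Of 48 alternative values, 22 stayed within the limit and 26 moved, where the limit was the main value's 95% interval for a share and 1.5 times for a count or a median. A wider distance, an allowed mismatch or a later list left out could only raise a value. The tally is therefore not a measure of how stable the results are. No paired analysis was possible because each group had 1 library. Depth is unknown, so absence from a list cannot be told from a signal under the authors' cutoff.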
